A study of Mus musculus with 8 samples.

Results

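Fezf2, Tbr1, Lamp5, Krt12 and Myl4, 5 genes known as markers of the neocortex, were followed through the hippocampal RNA of single mice. They were found by gene symbol among the probe sets annotated to 1 gene alone. This gave 7 probe sets of the 22626 on the array that are not controls, 1 each for Fezf2 (1418790_at), Tbr1 (1416711_at) and Lamp5 (1423853_at), and 2 each for Krt12 (1419231_s_at and 1419230_at) and Myl4 (1422580_at and 1457126_at). All 5 genes had a probe set of their own, out of 12393 genes that did. The genes were selected on their differences between the treatments and their spread between mice, both already known. Those values are therefore given as a description, without a test, and support nothing further.

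The study compared 4 male SCID mice given FTY720 by mouth (1 mg/kg in saline on 3 days) with 4 male SCID mice given saline by mouth on the same schedule, all aged 12 weeks. SCID mice lack mature B and T lymphocytes, and this holds for both treatments, as does the contextual fear conditioning. FTY720 (fingolimod) is a sphingosine analogue that acts, once phosphorylated, on sphingosine-1-phosphate receptors. Hippocampi were taken 1 hour after the consolidation test, 17 hours after the last dose, and each mouse gave 1 Affymetrix 3' array (FTY720 1, 4, 5 and 6, and vehicle 13, 14, 15 and 16). Values are on a log2 scale, so a difference of 1 is a doubling. The table holds no detection calls, and the number of arrays limits the precision.

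Excitatory neurons of the neocortex lie in layers that send their axons to different targets, and transcription factors that repress one another set these fates. In the mouse, Fezf2 directs layer 5 neurons that project below the cortex, and Tbr1, a T-box factor of layer 6 neurons that project to the thalamus, represses Fezf2. Lamp5 encodes a membrane protein of the LAMP family found in neurons of the superficial layers and in a class of GABAergic interneurons that the hippocampus also holds. Krt12 encodes a type I keratin best known from the corneal epithelium, and Myl4 the essential myosin light chain of the atrium and of embryonic striated muscle. The neocortex lies next to the dorsal hippocampus, and a dissected hippocampus can carry some of it.

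The promoter windows of Fezf2, Tbr1 and Krt12 are shown because Fezf2 and Tbr1 are the transcription factors of the set and Krt12 is the member with a TATA box in its window. Each runs 5′ to 3′ from 250 bases before to 50 after the RefSeq start in GRCm38.p6, with matches to the searched motifs in capitals. Fezf2 lies at chr14:12345816-12346115 (minus strand), Tbr1 at chr2:61804203-61804502 (plus strand) and Krt12 at chr11:99422210-99422509 (minus strand).
Fezf2: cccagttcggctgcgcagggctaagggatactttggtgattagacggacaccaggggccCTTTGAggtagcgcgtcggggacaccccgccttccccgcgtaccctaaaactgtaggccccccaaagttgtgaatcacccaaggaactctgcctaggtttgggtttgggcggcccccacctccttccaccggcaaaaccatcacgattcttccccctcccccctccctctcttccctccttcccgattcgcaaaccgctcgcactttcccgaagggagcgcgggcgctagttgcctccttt
Tbr1: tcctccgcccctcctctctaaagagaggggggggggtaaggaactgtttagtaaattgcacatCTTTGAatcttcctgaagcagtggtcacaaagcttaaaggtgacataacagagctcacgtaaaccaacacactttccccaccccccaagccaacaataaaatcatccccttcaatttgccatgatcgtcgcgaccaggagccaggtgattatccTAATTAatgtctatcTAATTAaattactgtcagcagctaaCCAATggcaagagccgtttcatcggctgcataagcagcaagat
Krt12: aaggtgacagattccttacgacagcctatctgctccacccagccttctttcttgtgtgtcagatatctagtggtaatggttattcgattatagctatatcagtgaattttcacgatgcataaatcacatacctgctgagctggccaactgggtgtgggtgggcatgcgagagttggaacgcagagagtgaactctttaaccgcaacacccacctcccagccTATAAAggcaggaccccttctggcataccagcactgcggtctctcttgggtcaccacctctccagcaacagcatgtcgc
Each motif was searched on both strands. They were the usual TATA box TATAAA, the CCAAT box, the homeodomain core TAATTA, the E-box CAGCTG, the T-box element GGTGTGA and the core bound by TCF and LEF factors, TCAAAG. Krt12 held TATAAA with its first base at -29 from the start, and 13.6% of all 32851 windows hold that motif. Tbr1 held TAATTA at -33 and at -18, a motif found in 5.29% of windows. CTTTGA, the reverse complement of TCAAAG, stood at -191 in Fezf2 and at -187 in Tbr1, against 16.0% of windows with TCAAAG on either strand. CCAAT, held by 37.4% of windows, stood at 8 in Tbr1. GGTGTGA was found in none of the 6 windows of the 5 genes and in 3.98% of all windows, and CAGCTG in none of the 6 and in 16.3% of all. A match describes the letters in the window only.

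Fezf2 was the one gene of the set with higher values in FTY720 mice. It stood at 8.81, 8.96, 8.90 and 8.99 (log2 level) in FTY720 1, 4, 5 and 6, against 8.45, 8.52, 7.31 and 8.78 in vehicle 13, 14, 15 and 16. The groups did not overlap, the highest vehicle mouse, 16, came close to the lowest FTY720 mouse, and vehicle 15 lay 1.14 below every other mouse. Fezf2 averaged 8.91 ± 0.08 with FTY720 and 8.27 ± 0.65 with vehicle (SD, n = 4 each). The means of Fezf2 thus differed by 0.65 (SE 0.26), or 1.57-fold. Without vehicle 15 the difference was 0.33 (SE 0.09). The SD in vehicle mice was 8.35 times that in FTY720 mice.

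**Figure D1:**
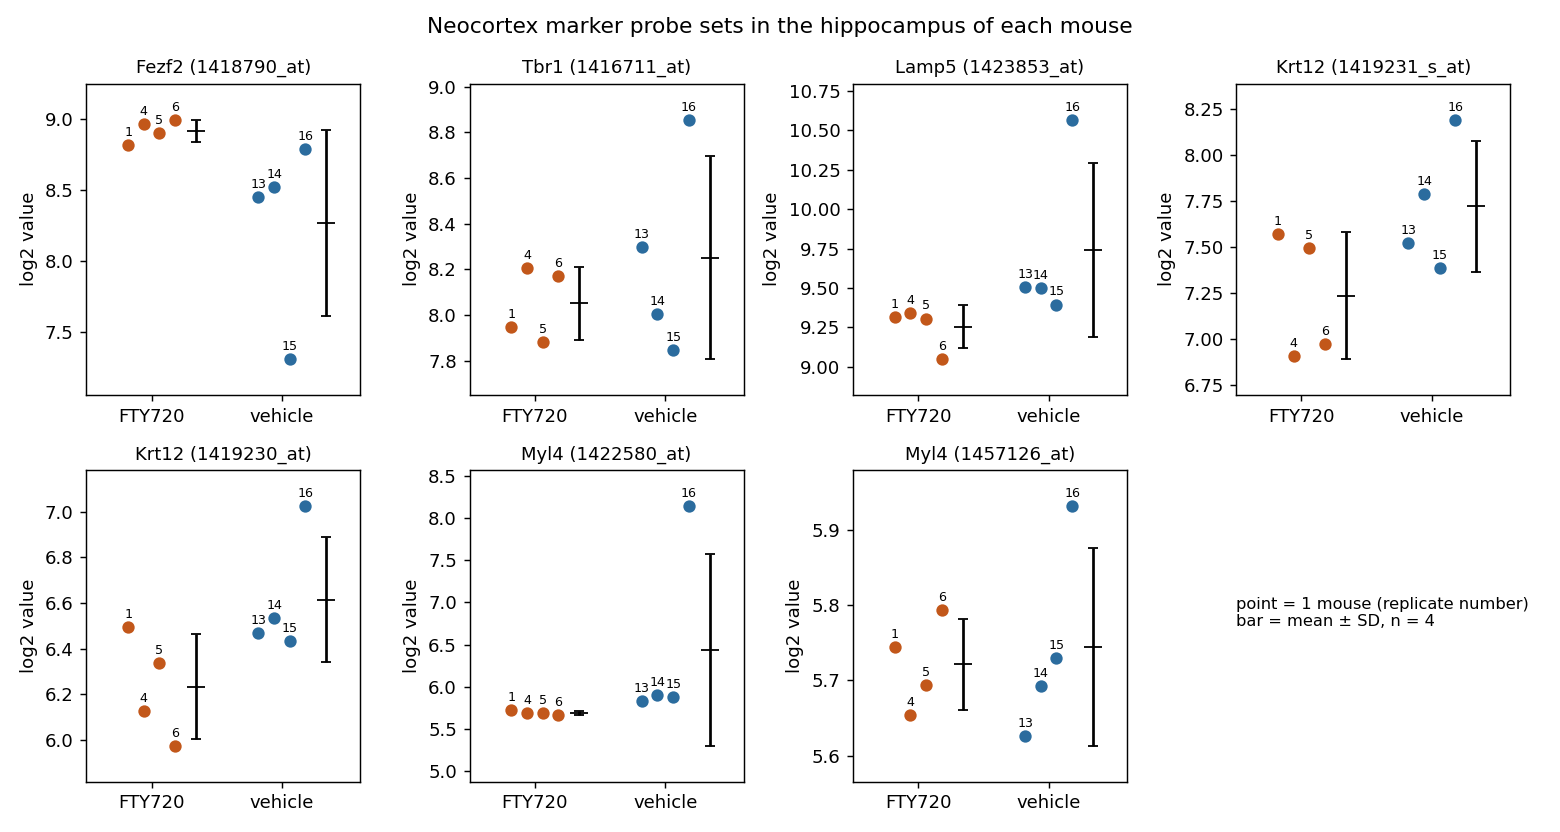
Log2 level of each of the 7 probe sets in each mouse, with the replicate number beside the point and the mean ± SD of 4 mice as a bar. The vertical axes differ between panels and do not start at 0. Vehicle 16 is the highest mouse in 6 panels, and vehicle 15 is far below the others for Fezf2.

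Tbr1 differed little apart from 1 mouse. It stood at 7.95, 8.20, 7.88 and 8.17 in FTY720 1, 4, 5 and 6, against 8.30, 8.005, 7.85 and 8.86 in vehicle 13, 14, 15 and 16. The groups overlapped, and vehicle 16 lay 0.56 above the next mouse. Tbr1 averaged 8.05 ± 0.16 with FTY720 and 8.25 ± 0.44 with vehicle (SD, n = 4 each). The means of Tbr1 thus differed by -0.20 (SE 0.19). Without vehicle 16 it was 0.00105 (SE 0.12), and without vehicle 15 it was -0.33 (SE 0.18). Vehicle 15 had the lowest level of both Tbr1 and Fezf2, by 0.03 for Tbr1.

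Lamp5 was lower in every FTY720 mouse than in every vehicle mouse. Its log2 levels were 9.32, 9.34, 9.31 and 9.05 in FTY720 1, 4, 5 and 6, against 9.51, 9.50, 9.39 and 10.57 in vehicle 13, 14, 15 and 16. The groups did not overlap, and vehicle 16 stood 1.06 above every other mouse, a 2.09-fold higher signal. Lamp5 averaged 9.25 ± 0.14 with FTY720 and 9.74 ± 0.55 with vehicle (SD, n = 4 each). The means of Lamp5 thus differed by -0.49 (SE 0.23). Without vehicle 16 it was -0.21 (SE 0.08), with the groups still apart.

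Krt12 was measured by 2 probe sets that ranked the mice much alike. The brighter one, whose suffix _s_at marks probes that can match several transcripts, gave 7.57, 6.91, 7.49 and 6.98 in FTY720 1, 4, 5 and 6, against 7.52, 7.79, 7.38 and 8.19 in vehicle 13, 14, 15 and 16. The other gave 6.50, 6.13, 6.34 and 5.97 in FTY720 1, 4, 5 and 6, against 6.47, 6.54, 6.43 and 7.02 in vehicle 13, 14, 15 and 16. In both, FTY720 4 and 6 were the 2 lowest mice, vehicle 16 was the highest and vehicle 14 the next, and the groups overlapped. The differences were -0.49 (SE 0.20) and -0.38 (SE 0.15), with SDs of 0.34 and 0.23 in FTY720 mice and 0.35 and 0.28 in vehicle mice (n = 4 each). Without vehicle 16 they were -0.33 (SE 0.18) and -0.25 (SE 0.11). Krt12 was the member whose FTY720 mice varied most.

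Myl4 held the widest spread of the 5 genes, and it came from 1 array. The probe set 1422580_at gave 5.72, 5.69, 5.69 and 5.66 in FTY720 1, 4, 5 and 6, against 5.83, 5.91, 5.87 and 8.14 in vehicle 13, 14, 15 and 16. Vehicle 16 stood 2.23 above the next mouse, a 4.70-fold higher signal, while the other 7 mice spanned 0.24. Myl4 averaged 5.69 ± 0.02 with FTY720 and 6.44 ± 1.13 with vehicle (SD, n = 4 each). The means of Myl4 thus differed by -0.75 (SE 0.44), or -0.18 (SE 0.05) without vehicle 16. All FTY720 mice lay below all vehicle mice. The second probe set, 1457126_at, gave 5.74, 5.65, 5.69 and 5.79 in FTY720 1, 4, 5 and 6, against 5.63, 5.69, 5.73 and 5.93 in vehicle 13, 14, 15 and 16. There the groups overlapped, vehicle 16 was the highest by 0.14, and the difference was -0.02 (SE 0.07), or 0.04 without vehicle 16. The 2 probe sets of Myl4 thus shared their highest mouse but not its distance from the others.

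**Figure D2:**
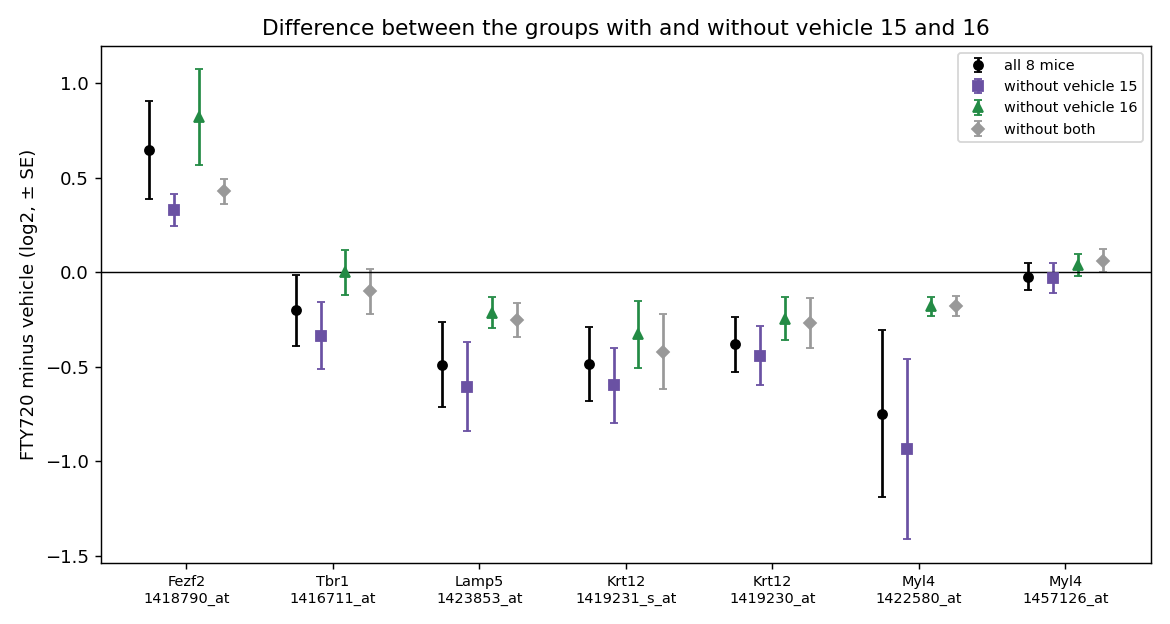
Difference of the means, FTY720 minus vehicle on the log2 scale with its SE, for each probe set with all 8 mice and without vehicle 15, vehicle 16 or both. The difference of Fezf2 stays above 0 at 0.33 to 0.82, and that of Myl4 1422580_at is -0.18 without vehicle 16, against -0.75 with all mice.

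Of the 7 probe sets, 1 had all FTY720 mice above all vehicle mice (2.65% of all 22626 probe sets) and 2 had all below (1.74%). Nothing is read from these shares, because the genes were chosen with this contrast known. Across the array the limma fit called 0 of 22626 probe sets at an adjusted p of 0.05, with a lowest adjusted p of 0.483, and 1529 (6.76%) at an unadjusted p under 0.05, of which 912 (4.03%) were higher with FTY720 and 617 (2.73%) lower. The median SE of a difference was 0.07. The median range over the 8 mice was 0.32 for all probe sets. The range of Fezf2 was 1.68 and that of Myl4 2.47, values that 0.407% and 0.146% of all probe sets reached, while the second Myl4 probe set had a range of 0.31, which 53.1% reached.

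Vehicle 16 was the highest mouse in 6 of the 7 probe sets, the exception being Fezf2, against 15.2% of all probe sets. It exceeded every other mouse by 0.5 or more in 51 probe sets of the array (0.225%), 3 of which belong to the set. Among these 51, Myl4 ranked 3rd by size of the gap, Lamp5 6th and Tbr1 39th. Vehicle 15 lay 0.5 or more below every other mouse in 73 probe sets (0.323%), where Fezf2 ranked 4th. It was the lowest mouse for 2 of the 7 probe sets, Fezf2 and Tbr1, against 22.8% of all. Krt12 and Myl4 enter these counts with 2 probe sets each. Nothing is read from these shares either, because the genes were chosen with their spread between mice known. In bulk tissue, fewer cells of a type and less RNA per cell cannot be told apart.

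Both arrays stand apart on the whole. Vehicle 15 lay alone on the first principal component (32.3% of the variance) and vehicle 16 on the second (20.2%). Array medians were between 6.68 and 6.72. The Gapdh control probe sets had a 5' minus 3' difference of -1.08 to -0.80 in FTY720 mice and -1.46 to -1.07 in vehicle mice, lowest in vehicle 16, and the 18S level there was 12.00, with the other 7 arrays from 12.46 to 12.75. That of actin was -2.44 to -2.19 in FTY720 mice and -2.74 to -2.44 in vehicle mice, again lowest in vehicle 16. The part of these control values in the high levels of vehicle 16 was not tested.

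Lamp5, Krt12 and Myl4 1422580_at varied alike over the mice. Fezf2 did not follow them with or without vehicle 16, and Tbr1 did not once vehicle 16 was left out. The likeness of 2 probe sets was described by Pearson's r and Spearman's rho over the 8 arrays, with no p because the genes were chosen for these values. Both groups were pooled, so differences between the groups enter r and rho, also without vehicle 16. Lamp5 and Myl4 1422580_at were most alike among different genes, with r = 0.97 and rho = 0.90, and r = 0.78 without vehicle 16. Lamp5 and the 2 probe sets of Krt12 had r = 0.81 and 0.90 (rho = 0.62 and 0.76), and r = 0.66 and 0.82 without vehicle 16. Krt12 and Myl4 1422580_at had r = 0.74 and 0.82 (rho = 0.74 and 0.88), and r = 0.65 and 0.73 without that mouse. Tbr1 and Lamp5 had r = 0.82 and rho = 0.52, but r = -0.02 without vehicle 16, so this likeness rested on that array. The 2 probe sets of Krt12 kept theirs, with r = 0.96, rho = 0.95 and r = 0.92 without vehicle 16. The 2 of Myl4 did not, with r = 0.82, rho = 0.07 and r = -0.30 without vehicle 16. Fezf2 and Lamp5 had r = 0.00 and rho = -0.71, and r = -0.43 without vehicle 16. Fezf2 and Myl4 1422580_at had r = 0.06 and rho = -0.76, and r = -0.73 without vehicle 16.

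The genes most like each member over the 8 arrays were sought among the 7071 genes with a mean above the median of all probe sets. They were picked for their high r on these same arrays, so r is a description, also where arrays are left out. Psrc1 led for Fezf2 (r = 0.99, rho = 0.95), ahead of Nudt16l1 and Gpd1, which encodes a glycerol-3-phosphate dehydrogenase. Psrc1 stood at 7.56, 7.57, 7.49 and 7.63 in FTY720 1, 4, 5 and 6, against 7.23, 7.20, 6.21 and 7.38 in vehicle 13, 14, 15 and 16. Its order repeated that of Fezf2 in having the FTY720 mice on top and vehicle 15 far below, and r was 0.94 without vehicle 15 and 13, the arrays farthest from the median of Fezf2.

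For Tbr1 the leading genes were Ier5 and Nr4a1, both immediate early genes that activity induces, and the kinase gene Mapk6 (r = 0.96, 0.96 and 0.95, and rho = 0.90 for each). Nr4a1 stood at 9.06, 9.19, 8.96 and 9.34 in FTY720 1, 4, 5 and 6, against 9.17, 9.11, 8.75 and 10.02 in vehicle 13, 14, 15 and 16. Like Tbr1, it was highest in vehicle 16 and lowest in vehicle 15. Without these 2 arrays r was 0.79, 0.75 and 0.78.

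For Lamp5 they were the receptor kinase gene Tyro3, neuropeptide Y (Npy), which many interneurons make, and Nudt4, with r = 0.99, 0.98 and 0.98. Without vehicle 16 and FTY720 6 they had r = 0.66, 0.74 and 0.94. Npy stood at 9.30, 9.40, 9.24 and 9.18 in FTY720 1, 4, 5 and 6, against 9.38, 9.44, 9.31 and 9.89 in vehicle 13, 14, 15 and 16. Its groups overlapped, with vehicle 16 on top as for Lamp5.

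For Krt12 (1419231_s_at) the 3 were the ribosomal protein gene Rpl35, Pigo and the interferon-induced Ifitm1 (r = 0.96, 0.95 and 0.95), with r = 0.87, 0.87 and 0.84 without vehicle 16 and FTY720 4. Their differences between the groups were small, from -0.11 to -0.06. For Myl4 (1422580_at) they were Rgs4, a regulator of G protein signalling, Rpl27a and Zfp280d (r = 0.98, 0.98 and 0.97). Rgs4 had rho = -0.05 and r = -0.74 without vehicle 16, and was at 10.24 in that mouse against 9.54 to 9.62 in the others. The likeness of Rgs4 thus came from vehicle 16 alone, while Rpl27a kept r = 0.86 without it. Zfp280d, which spanned only 0.16 over the 8 mice, fell to r = 0.39 without vehicle 16.

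Other genes known from the neocortical layers were taken from 4 lists, and 51 of those genes besides the members had a probe set of their own. By the brightest probe set of each, 0 passed the limma fit at an adjusted p of 0.05, and at an unadjusted p under 0.05 there were 2 with higher values in FTY720 mice (3.57% of all genes were) and 6 with lower values (2.70%). The median difference of the 51 was 0.01, as it was over all genes, with 26 above and 25 below 0. The 2 higher ones numbered 4 without FTY720 1, 7 without vehicle 13 and 5 without vehicle 16.

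Upper-layer genes often had their highest level in vehicle 16. This held for 9 of 13, or 69.2%, where 15.2% of all genes did so. It was also seen outside the neocortex, in 6 of 9 oligodendrocyte markers (66.7%) and 4 of 8 astrocyte markers. The upper-layer list mean of that mouse was 0.30 above the mean of the 8. With FTY720 the mean of these genes ran from -0.09 to -0.01, and in the other vehicle mice from -0.07 to 0.06. The 9 were Cux1, Cux2, Rasgrf2, Rorb, Inhba, Rspo1, Otof, Stard8 and Pou3f2. Of them Rspo1, a secreted enhancer of Wnt signalling, stood at 6.76 in vehicle 16, against 5.05 to 5.36 in FTY720 mice and 5.06 to 6.13 in the other vehicle mice. Rspo1 differed between the groups by -0.60 (SE 0.30, limma adjusted p = 0.747), or -0.30 without vehicle 16. Without vehicle 15 and 16 its difference was -0.0057. Stard8 differed by -0.44 (SE 0.20, adjusted p = 0.732), or -0.25 without vehicle 16, and the homeobox gene Cux1 by -0.10 (SE 0.05, adjusted p = 0.747).

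Layer 5 genes, the company of Fezf2, did not share that feature. None of the 15 had its highest level in vehicle 16, and their mean ran from -0.04 to 0.03 with FTY720 and from -0.03 to 0.02 with vehicle. Vehicle 15, the lowest mouse for Fezf2, was the lowest for 5 of the 15, against 23.6% of all genes. Crym, a thyroid hormone-binding protein of corticospinal neurons, averaged 10.78 ± 0.09 with FTY720 and 10.31 ± 0.10 with vehicle (SD, n = 4 each), and its means differed by 0.47 (SE 0.07, limma adjusted p = 0.483). The groups of Crym did not overlap. Ldb2, a cofactor of LIM-domain proteins, was the other gene at an unadjusted p under 0.05 with higher values, at 0.39 (SE 0.12). Pcp4, a calmodulin-binding peptide, differed by -0.57 (SE 0.18, adjusted p = 0.685), or -0.36 without vehicle 15, and the opsin Opn3 by -0.34 (SE 0.10, adjusted p = 0.685), or -0.23 without vehicle 15. Bcl11b, the factor that acts downstream of Fezf2 in corticospinal neurons, averaged 9.28 with FTY720 and 9.14 with vehicle, and differed by 0.14 (SE 0.14).

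Genes of layer 6 and the subplate, where Tbr1 belongs, had their lowest level in vehicle 15 in 6 of 12 cases, against 23.6% of all genes. The 6 were Sox5, Zfpm2, Ntsr1, Ccn2, Cplx3 and Nr4a2. The list mean was -0.23 in vehicle 15, with FTY720 mice between 0.01 and 0.07 and the other vehicle mice between -0.11 and 0.10. On the other neocortical lists, vehicle 15 was lowest for 3 of 13 upper-layer, 5 of 15 layer 5 and 3 of 13 callosal genes. Outside the neocortex, vehicle 15 was also lowest for 5 of 9 dentate gyrus markers, 3 of 7 hippocampal pyramidal cell markers and 3 of 7 microglia markers. It was lowest for 0 of 14 thalamus, 0 of 11 striatum and 0 of 9 oligodendrocyte markers. Ccn2, a matricellular protein of subplate-derived cells, differed between the groups by 0.36 (SE 0.17, limma adjusted p = 0.732), or 0.20 without vehicle 15, and Zfpm2 by 0.34 (SE 0.16, adjusted p = 0.736), or 0.16 without it. Lpar1, a lysophosphatidic acid receptor also made by oligodendrocytes, differed by -0.28 (SE 0.10, adjusted p = 0.699).

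Of 13 callosal neuron genes, 0 had higher and 3 had lower values at an unadjusted p under 0.05 (3.57% and 2.70% of all genes), and 1 had lower values without vehicle 15 and 16. The 3 were the small heat shock protein gene Hspb3 at -0.46 (SE 0.08, limma adjusted p = 0.483), the growth factor gene Ptn at -0.26 (SE 0.09, adjusted p = 0.690) and Chn2, a Rac GTPase-activating protein, at -0.69 (SE 0.25, adjusted p = 0.699), or -0.43 without vehicle 15. The mean of the callosal genes ran from -0.13 to -0.01 with FTY720 and from 0.02 to 0.14 with vehicle, where vehicle 16 was the highest.

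**Figure D3:**
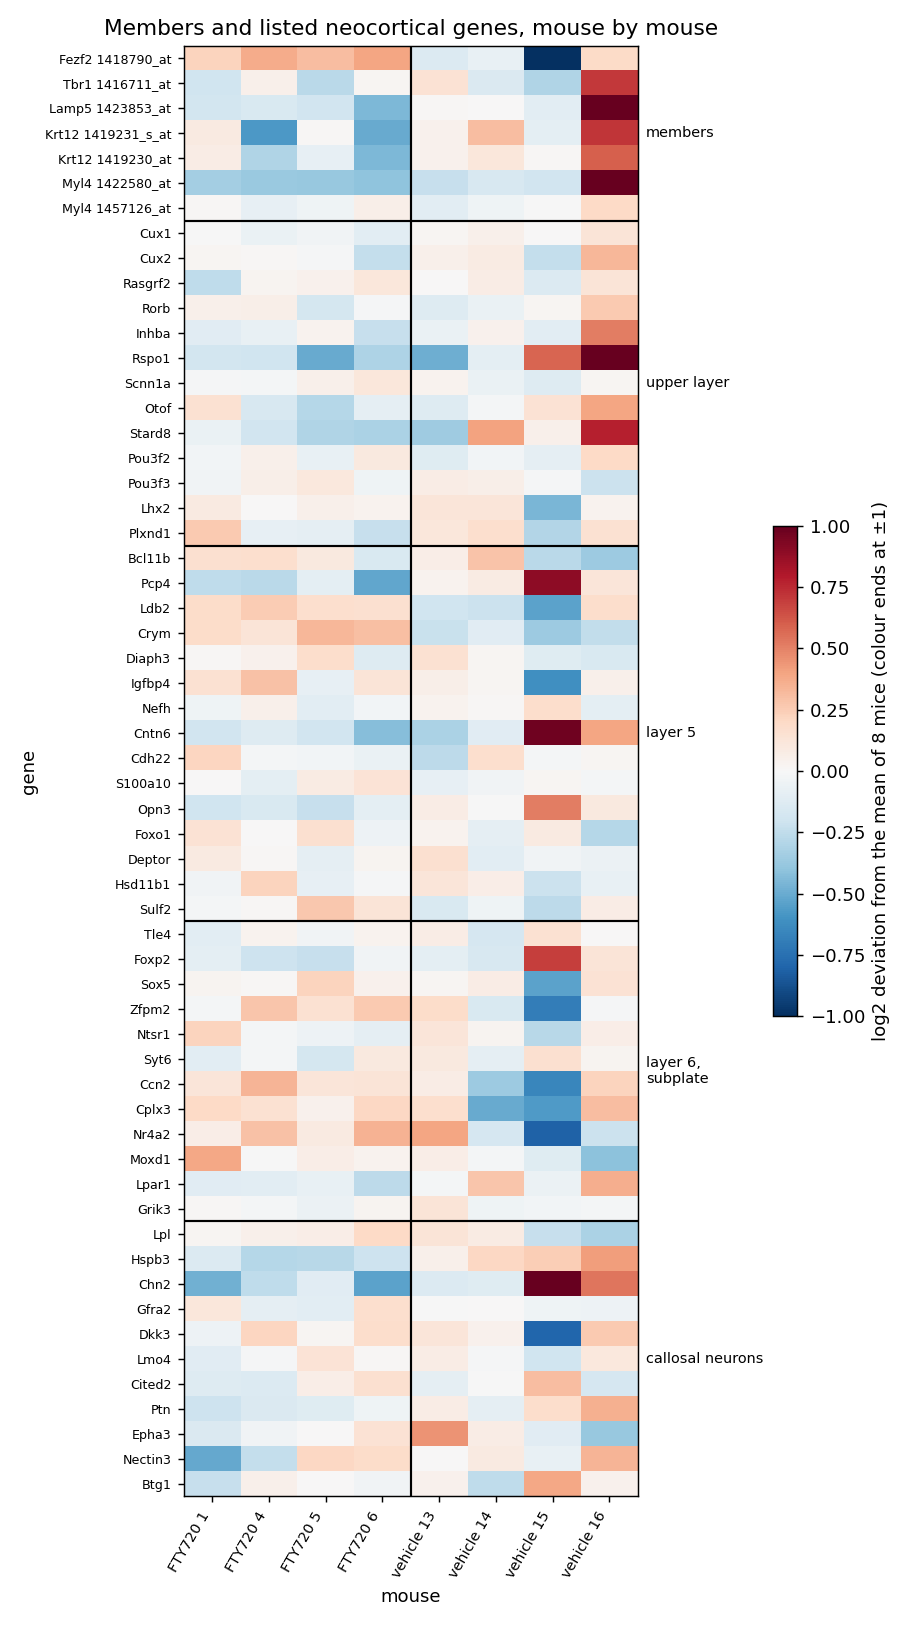
Log2 deviation of each gene from its own mean over the 8 mice, for the 7 probe sets of the members and for 51 other neocortical genes by layer (a gene on 2 lists is drawn once), with FTY720 mice left of vehicle mice. Vehicle 16 is the highest mouse for 6 of the 7 member probe sets, Fezf2 excepted, and for 9 of 13 upper-layer genes. Vehicle 15 is the lowest mouse for Fezf2, Tbr1 and 6 genes of layer 6 and the subplate.

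Of 16 other transcription factors measured that set projection neuron identity, 0 had higher and 1 had lower values at an unadjusted p under 0.05 (3.57% and 2.70% of all genes), with a median difference of 0.08, or 0.02 without vehicle 15. Vehicle 15 was the lowest mouse for 8 of the 16, and for 23.6% of all genes. Pax6, a homeobox factor of cortical progenitors, was that 1, at -0.26 (SE 0.07, limma adjusted p = 0.593). Neurog2 stood at 0.13 (SE 0.06, adjusted p = 0.732) and Neurod1 at 0.21 (SE 0.11, adjusted p = 0.766), or 0.11 without vehicle 15.

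Among 25 T-box, LAMP, keratin and myosin light chain genes measured, relatives of the members by protein family, 2 had their highest level in vehicle 16, as did 15.2% of all genes, and none exceeded the other mice by 0.5 there. At an unadjusted p under 0.05, 0 had higher and 1 had lower values (3.57% and 2.70% of all genes). Krt14 differed by -0.19 (SE 0.07, limma adjusted p = 0.699), Myl7 by -0.14 (SE 0.06, adjusted p = 0.732) and Myl6b by 0.08 (SE 0.06, adjusted p = 0.817), or 0.05 without vehicle 13.

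Of 12 other genes measured of the interneuron class that Lamp5 also marks, 4 had higher and 1 had lower values with FTY720 at an unadjusted p under 0.05 (3.57% and 2.70% of all genes), and none passed at an adjusted p of 0.05. Without vehicle 15 and 16 there were 3 higher and 1 lower. Lhx6, a factor of interneurons from the medial ganglionic eminence, differed by 0.23 (SE 0.06, limma adjusted p = 0.593) and the nitric oxide synthase gene Nos1 by 0.30 (SE 0.12, adjusted p = 0.699). Prox1, dim at a mean level of 3.29 and also on the dentate gyrus list, was another of the 4 higher ones, at 0.18. Pax6, counted here too, was the lower one. Their mean ran from 0.02 to 0.04 with FTY720 and from -0.04 to -0.01 with vehicle.

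Markers of other tissue and cells also varied between the arrays. The mean of the thalamus markers (14 of 15 genes measured) ran from -0.39 to -0.21 with FTY720 and from -0.33 to 1.14 with vehicle. That of the striatum markers (11 of 15) ran from -0.35 to -0.21 with FTY720 and from -0.32 to 1.40 with vehicle. Both were highest in vehicle 15, where Fezf2 was lowest. Of the 14 thalamus genes, 0 had higher and 6 had lower values at an unadjusted p under 0.05 (3.57% and 2.70% of all genes). Without vehicle 15 and 16 there were again 6 lower, and with all mice none passed at an adjusted p of 0.05. Rora and Ramp3, of the thalamus list, differed by -0.43 and -0.74, or -0.32 and -0.51 without vehicle 15. Without vehicle 15 and 16, Rora was at -0.39 and Ramp3 at -0.43. Penk and Rasd2, of the striatum list, differed by -1.14 and -0.41, or -0.61 and -0.19 without vehicle 15. Without vehicle 15 and 16, Penk was at -0.095 and Rasd2 at -0.10. The oligodendrocyte mean (9 of 12 genes) ran from -0.32 to -0.08 with FTY720 and from -0.06 to 0.37 with vehicle, highest in vehicle 16. All 9 of its genes had lower values with FTY720 at an unadjusted p under 0.05, where 2.70% of all genes did, with Ugt8a at -0.52 and Mog at -0.54. Without vehicle 15 and 16 there were 7, and none passed at an adjusted p of 0.05.

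Choroid plexus markers (11 of 15 genes) were uneven within both groups, from -1.23 to 0.91 with FTY720 and from -0.86 to 1.36 with vehicle. FTY720 4 and 6, the lowest mice for Krt12, were also the lowest 2 for this list, while vehicle 16, the highest for Krt12, was the next. Ttr differed by -0.69, but by -1.08, -0.25, -1.05 and -0.36 without FTY720 1, 4, 5 and 6. Folr1 differed by -0.78, but by -0.48 without FTY720 6 and -0.33 without vehicle 15.

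The mean of the dentate gyrus markers (9 of 11) ran from -0.31 to 0.22 with FTY720 and from -0.37 to 0.33 with vehicle. That of the pyramidal cell fields of the hippocampus (7 of 12) ran from -0.08 to 0.18 with FTY720 and from -0.19 to 0.07 with vehicle. In both lists vehicle 15 was the lowest mouse. Prox1, dim at a mean level of 3.29, differed by 0.18, or 0.12 without FTY720 4, and Lct by -0.27. Lct moved with many mice, to -0.44 without FTY720 4, -0.085 without FTY720 6, and -0.11, -0.18 and -0.41 without vehicle 13, 14 and 15. Without vehicle 15, Socs2 was at 0.10, against 0.15 with all mice, and Pou3f1 at 0.18, against 0.39. Lists of astrocytes (8 of 8 genes), microglia (7 of 8) and endothelium (6 of 7) spanned less, with means from -0.17 to 0.04 under FTY720 and from -0.18 to 0.19 under vehicle. Their leading genes were Aqp4 at -0.23 and Aldh1l1 at -0.11, Aif1 at -0.17 and C1qb at -0.10, and Cldn5 and Tek at -0.21 each. Aldh1l1 was at -0.07 without FTY720 5 and -0.05 without vehicle 16. C1qb was at -0.15 without vehicle 13 and -0.03 without vehicle 16. Cldn5 and Tek were at -0.12 and -0.11 without FTY720 6. The part of any of these lists in the values of the 5 genes was not tested.

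**Figure D4:**
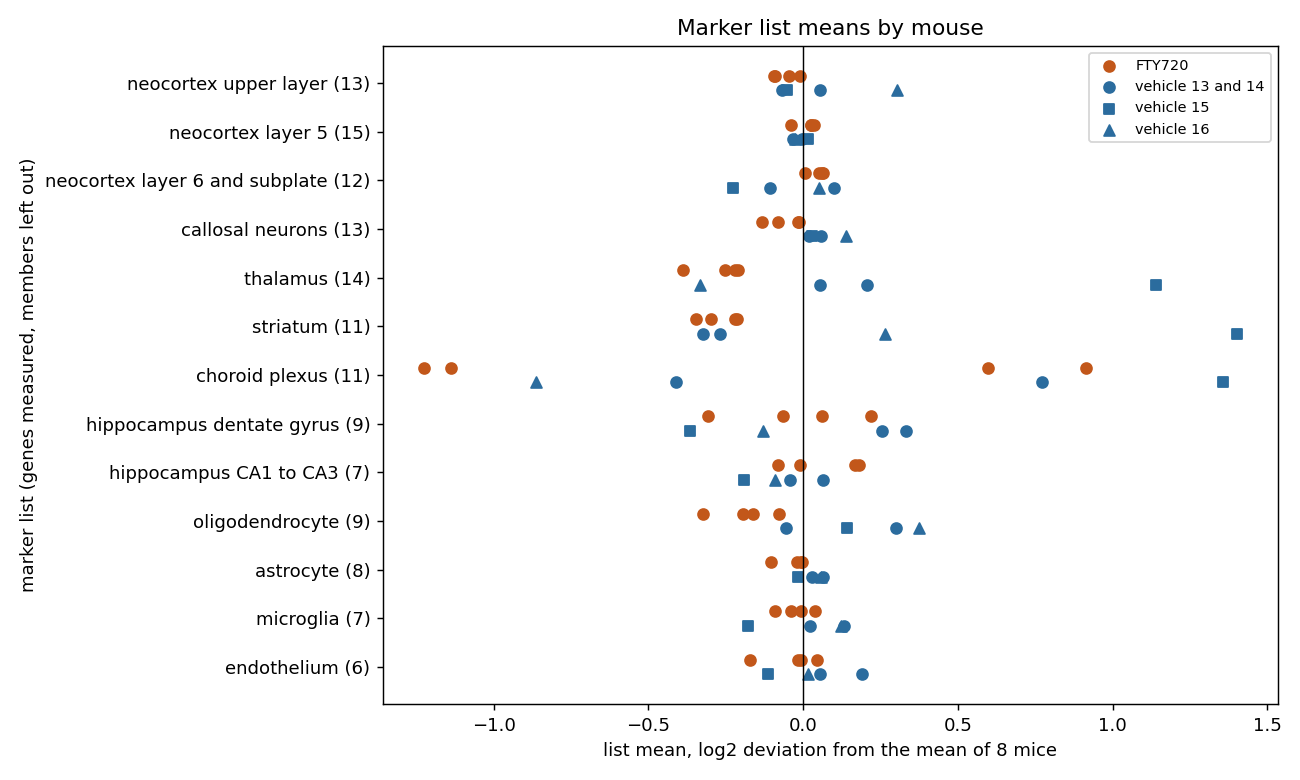
Mean of each marker list in each mouse, as log2 deviation from the mean of the 8 mice, with the number of genes measured in brackets and the 5 members left out. Vehicle 15 (square) is highest for thalamus at 1.14 and striatum at 1.40, and vehicle 16 (triangle) is highest for the upper-layer list at 0.30 and for oligodendrocytes at 0.37.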

How the data were processed

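The values the authors deposited, 1 per probe set and array, run from 2.31 to 14.5 and were read as log2 for that reason. The submitters' processing notes list Affymetrix Expression Console, MAS5 and RMA without saying which produced them. Labelling used the 3' IVT Express Kit, per the labels' protocols. Genome build: not given in the sources used here. No slide or scan batch could be tested.

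Symbols came from the platform annotation (20380 probe sets with 1 symbol, 691 with several, 1555 with none, besides 64 controls). By Entrez ID 20351 were found in the RefSeq table and no symbol changed. Promoter windows came from RefSeq (GRCm38.p6), and all 5 genes matched.

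FTY720 and vehicle were compared with limma 3.58.1 in R 4.3.3 (lmFit, eBayes, no covariate, 8 arrays), adjusted by Benjamini-Hochberg over all 22626 probe sets. The fit was tested on simulated data. Replicate numbers differ between the groups, so nothing was paired. List genes are counted by their brightest probe set, and list means leave out the members.

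The members, the lists and the tests were chosen with earlier results of these data known. Named were the members, the 3 genes per neocortex, network, family or interneuron list and the 2 per other list of smallest unadjusted p, the 3 genes of highest Pearson correlation with each member, and the control probe sets. Ldb2, Bcl11b and the genes listed for vehicle 15 or 16 were named after their values were seen. Alternatives covered quantile normalization, 1 probe set per gene, a filter on dim probe sets, other variance models, array weights and leaving out arrays.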

Additional observations from a re-analysis of the deposited data

Results flagged for a closer look

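Within groups of 4 mice, 11 of 130 groups examined had 1 mouse far from the other mice by Dixon's ratio. Chance puts about 1 in 20 groups past that limit where genes are taken without regard to their values. Most genes here were chosen for their spread or their difference, so the count is a description and no test. Vehicle 16 was far above for Lamp5 (10.57) and Myl4 1422580_at (8.14). FTY720 6 was far below for Lamp5 (9.05), for the layer 5 list mean (-0.0404), for the astrocyte list mean (-0.10) and for Tek (6.23). Vehicle 15 was far below for Pou3f1 (8.49) and Tek (6.50) and far above for Pcp4 (12.86). FTY720 4 was far above for Ccn2 (8.68), and vehicle 13 for Myl7 (4.24).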

How the results depend on the processing

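The count of probe sets at an adjusted p of 0.05 was 0 under every alternative run. Unadjusted, 912 probe sets were higher and 617 lower, and 478 and 345 with 1 probe set per gene, or 569 and 400 with only probe sets above the median, where fewer probe sets were tested. Leaving out each mouse gave 714 to 1089 higher and 500 to 776 lower. The 2 other neocortical genes with higher values numbered 2 to 7 and the 6 with lower values 4 to 9 when 1 mouse was left out. Over the same fits the difference of Fezf2 was 0.33 to 0.82, of Tbr1 -0.33 to 0.00105, of Lamp5 -0.60 to -0.21, of Krt12 -0.60 to -0.33 and -0.47 to -0.25, and of Myl4 -0.95 to -0.18 and -0.0632 to 0.0386. The sign of Tbr1 turned without vehicle 16, at 0.00105. That of Myl4 1457126_at turned with array weights (0.00854), without vehicle 16 (0.0386) and without vehicle 15 and 16 (0.0620). Neurod1 stood at -0.0187 without vehicle 15 and 16. The filter left out both Myl4 probe sets and Krt12 1419230_at. No paired analysis was possible because the groups share no replicate number. Signal over background cannot be judged without detection calls.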

Other observations

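The company of Myl4, Lamp5 and Tbr1 among the 51 probe sets in which vehicle 16 exceeded every other mouse by 0.5 or more was read out after the values were seen. The widest gaps belonged to the 2 probe sets of Egr2, an immediate early transcription factor, at 2.39 and 2.30 on the log2 scale. Other activity-induced genes were there too, with Arc 1.00, Fos 0.97, Egr1 0.92, Nr4a1 0.68 and Fosb 0.63 above the next mouse. So were 5 probe sets of Mef2c, a transcription factor of excitatory neurons, with gaps of 0.55 to 0.75, 3 of Rgs4 and the cholecystokinin receptor gene Cckbr at 0.75. The muscle troponin gene Tnnc1 stood 0.67 above, beside the myosin light chain of Myl4.

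The 73 probe sets in which vehicle 15 lay 0.5 or more below every other mouse held, beside Fezf2, 2 probe sets of Baiap2l1 with gaps of 1.22 and 1.19, and 3 of Nfix (0.95, 0.85 and 0.62). The fibronectin gene Fn1 had gaps of 1.32 and 0.70, Psrc1 0.99, and Dkk3, a secreted protein of pyramidal neurons, 0.80 and 0.75. Neurogranin (Nrgn) lay 0.68 below, Vip 0.63, Bdnf 0.57 and Cck 0.50.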
